A study of Mus musculus with 31 samples.

Results

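A set of 9 regulators of stem-like and memory T cells was followed through 3 RNA sequencing experiments on mouse T helper 17 (Th17) cells: Tcf7, Lef1, Bach2, Klf2, Id3, Satb1, Slamf6, Il6st and Il7r. They were taken by symbol from the count tables, which list 31053 genes each, and all 9 were found in every table. Tcf7 encodes TCF1, which with its relative LEF1 binds DNA, pairs with beta-catenin in Wnt signalling and keeps T cells able to renew themselves. BACH2 represses effector genes, KLF2 drives genes of quiescence and tissue exit, ID3 blocks the DNA binding of E proteins, and SATB1 organises chromatin loops in thymocytes and T cells. SLAMF6 is a surface receptor found on stem-like T cells, IL6ST (gp130) is the signalling chain shared by interleukin 6 family receptors, and IL7R is the receptor chain through which interleukin 7 keeps naive and memory T cells alive. Some of these genes, among them Il6st, Klf2 and Id3, are also active in many other cell types.

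Cells for the 2 genotype experiments were naive 2D2+ T cells, which carry a transgenic receptor for a myelin protein, on a background labelled C57/B6. The Cyp11a1 experiment had 4 wild-type (WT) and 6 conditional knockout (cKO) libraries, and the GR experiment, in which the gene of the glucocorticoid receptor Nr3c1 is targeted, had 5 WT and 4 cKO libraries. In all 4 of these groups the cells were made into homeostatic Th17 cells (Th17Hom) in culture, given to Rag1 KO mice, which lack T and B cells of their own but keep myeloid and natural killer (NK) cells, and sorted as 2D2+ from the central nervous system (CNS) at peak experimental autoimmune encephalomyelitis (EAE). The treatment experiment used WT cells from spleen and draining lymph node, made into inflammatory Th17 cells (Th17Inf) and kept for 2 days as control, with the synthetic glucocorticoid dexamethasone (Dex), with TGF-β1, or with TGF-β1 + Dex (n = 3 each). The driver of the Cre recombinase, the age of the animals and the doses are not given in the sources used here. Nor do the labels say that libraries of a group came from separate mice or cultures, so p-values measure the spread among libraries, which may be technical.

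About 2000 sorted cells went into a library. Total counts ranged between 4322688 and 5118543 for Cyp11a1, between 3552871 and 5623305 for GR, and between 2769203 and 4291149 for the cultures. Highly counted predicted genes took 15.4% to 39.0%, 16.3% to 55.7% and 11.7% to 30.8% of these totals. They are genes named Gm with digits that reached at least 0.2% of the counts in any library of their experiment. Levels are given in CPM, a gene's count as a share of its library over the genes kept, corrected by edgeR's TMM factor. A count of 0 is taken to allow up to 3 counts, which comes to between 0.522 and 0.795 CPM for Cyp11a1, 0.495 and 1.05 CPM for GR, and 0.632 and 1.13 CPM for the cultures, covering counting error only. Of the targeted genes, Cyp11a1 had 0 counts in all 4 Cyp11a1 WT libraries and in 5 of 6 cKO libraries, so its loss could not be checked. Nr3c1 stood at 14.9 ± 2.38 CPM (SD, n = 5) in GR WT and 8.43 ± 1.42 CPM (n = 4) in GR cKO, a log2 fold change of −0.83 that did not pass (edgeR adjusted p = 0.580). The sum over 15 T cell markers lay between 34748 and 40558 CPM for Cyp11a1, between 16433 and 21982 CPM for GR, and between 3844 and 4276 CPM for the cultures. Without the 3 receptor constant genes the sums over the other 12 markers were 3849 to 4346, 2192 to 3052 and 2663 to 2906 CPM.

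Levels of different genes were compared per kilobase of their longest principal transcript. In the Cyp11a1 WT cells from the CNS, Tcf7 led with 35.0 ± 5.61 CPM per kb (SD, n = 4), followed by Il7r with 31.2 ± 12.2 CPM per kb, which overlapped it. Slamf6 and Lef1 came next at 18.7 ± 6.33 and 11.0 ± 3.79 CPM per kb, and Satb1 and Id3 at 4.86 ± 0.294 and 4.57 ± 2.48 CPM per kb lay within each other's spread. Bach2 at 0.762 ± 0.210 CPM per kb and Il6st at 0.367 ± 0.157 CPM per kb were low, and Klf2 was lowest at 0.0784 CPM per kb. In the control cultures the order was another one: Lef1 at 31.0 ± 4.85 and Satb1 at 27.9 ± 1.01 CPM per kb (SD, n = 3) led, Id3 at 11.0 ± 1.01, Tcf7 at 10.9 ± 0.459 and Il7r at 10.02 ± 0.341 CPM per kb lay close together, and Slamf6 was at 2.92 ± 1.08 CPM per kb. Lef1 and Satb1 were the top pair in each of the 4 culture groups. Tcf7 had the highest mean in each of the 4 CNS groups, always within the spread of the next gene. Next was Il7r in Cyp11a1 cKO (23.1 ± 4.77 against 23.3 ± 3.37 CPM per kb for Tcf7) and in GR cKO (23.2 ± 4.48 against 24.7 ± 5.19). In GR WT it was Slamf6 (15.0 ± 4.41 against 15.7 ± 5.64). These levels are set side by side without a test, because place, Th17 type and experiment cannot be told apart between the tables.

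The Cyp11a1 comparison asks how these regulators stand in CNS Th17 cells when the gene of the enzyme that starts steroid synthesis is targeted. Of the 9 genes, 8 had enough counts to be tested and Klf2 did not. All 8 had a lower fitted level in cKO, with a median log2 fold change of −0.55 against 0.0027 over all 10125 genes tested. That median was −0.35 without WT replicate 1 and −0.20 without WT replicates 1 and 4, where Il7r and Lef1 turned positive. Still, 0 of the 8 passed an adjusted p of 0.05 in edgeR (0.178% of all genes did), and 4 had an unadjusted p below 0.05 (8% of all genes). DESeq2 called 1 of them, Tcf7, and limma voom 0. Groups did not overlap for 2 of the 8, Tcf7 and Bach2, against 1.97% of all genes. In sorted bulk samples, fewer cells of a type and less RNA per cell cannot be told apart.

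Tcf7 (chromosome 11, 52252371 to 52283014, GRCm38) stood at 98.6, 74.2, 75.0 and 98.6 CPM in WT replicates 1 to 4 and at 46.4, 70.8, 61.9, 52.7, 55.7 and 58.3 CPM in cKO replicates 1 to 6. Every cKO library lay below every WT library, the closest being cKO replicate 2 and WT replicate 2. Fitted, cKO differed from WT by a log2 fold change of −0.59 ± 0.12 (SE), with a 95% interval of −0.85 to −0.32 (edgeR adjusted p = 0.101). The call depended on the method, with adjusted p = 0.00637 in DESeq2 and 0.0362 in edgeR without a filter on low counts. Leaving out WT replicates 1 and 4, which were highest in Tcf7 and Il7r and were picked for that, gave −0.37 (edgeR adjusted p = 0.573), so the smaller value follows in part from the choice.

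Bach2 (chromosome 4, 32238804 to 32586108), the effector gene repressor, was sparse at 10 to 52 counts a library. It stood at 6.56, 6.97, 9.05 and 4.50 CPM in the WT libraries and at 4.12, 3.18, 3.23, 1.88, 3.17 and 4.15 CPM in the cKO libraries. WT replicate 4 was the lowest of its group and only just above cKO replicates 1 and 6. This was a log2 fold change of −1.06 ± 0.24 (95% interval −1.58 to −0.54, edgeR adjusted p = 0.140), and it was −1.28 without WT replicates 1 and 4 (edgeR adjusted p = 0.235). An antisense gene, Bach2os, shares 537 exon bases (5.40%) with Bach2, and the protocol keeps no strand, so their reads cannot be told apart there.

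Among the surface receptors, Slamf6 (chromosome 1, 171917515 to 171953170) was at 68.8, 37.0, 34.1 and 45.6 CPM in WT and at 21.5, 41.6, 27.5, 23.3, 32.2 and 31.1 CPM in cKO, where only cKO replicate 2 reached into the WT range. Its log2 fold change was −0.65 ± 0.21 (edgeR adjusted p = 0.394), and −0.39 without WT replicate 1 and −0.27 without WT replicates 1 and 4. Il6st (chromosome 13, 112464070 to 112510086) had 5 to 24 counts a library, with 5.08, 3.29, 2.26 and 2.12 CPM in WT and 1.22 to 2.26 CPM in cKO. Its log2 fold change of −1.03 ± 0.32 (edgeR adjusted p = 0.364) rested on few reads and the groups overlapped. Il7r (chromosome 15, 9505788 to 9530176) split the WT group, with 133 and 160 CPM in replicates 1 and 4 and 73.8 and 74.6 CPM in replicates 2 and 3. The cKO libraries at 59.4 to 101 CPM spanned the lower WT pair, and the log2 fold change of −0.42 ± 0.23 (edgeR adjusted p = 0.718) turned to 0.14 without WT replicates 1 and 4.

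The other DNA-binding regulators lay within overlapping ranges. Lef1 (chromosome 3, 131110471 to 131224356) was at 58.0 CPM in WT replicate 1 and 30.1 to 34.4 CPM in the other WT libraries, against 24.9 to 44.7 CPM in cKO, for a log2 fold change of −0.12 ± 0.20 (edgeR adjusted p = 0.928) that became 0.15 without WT replicate 1. Of its exon bases, 1208 (13.7%) are shared with the antisense gene Gm43352. Id3 (chromosome 4, 136143497 to 136145755) was also highest in WT replicate 1, at 10.6 CPM against 3.97 to 4.65 CPM in the other 3, with 3.01 to 5.88 CPM in cKO (log2 fold change −0.52 ± 0.31, edgeR adjusted p = 0.750, and −0.070 without WT replicate 1). Satb1 (chromosome 17, 51736187 to 51833290) varied least, at 28.5 to 32.3 CPM in WT and 23.0 to 30.6 CPM in cKO. Its log2 fold change of −0.15 had a 95% interval of −0.37 to 0.07 (edgeR adjusted p = 0.784). Klf2 (chromosome 8, 72319033 to 72321656) had 0 or 1 count in the WT libraries and 0 to 4 counts in the cKO libraries, too few for any comparison.

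Markers of other cells that the gate could hold were summed in the same libraries. The 20 myeloid and microglia markers reached 415 to 597 CPM in WT and 563 to 1231 CPM in cKO, and the 10 NK and CD8 T cell markers 71.9 to 312 and 181 to 476 CPM. The 10 endothelial markers were 37.4 to 48.9 CPM in WT and 24.5 to 34.5 CPM in cKO without overlap. Of the 10, 3 were at 0 in all WT libraries (Cdh5, Tek and Flt1) and 2 in all cKO libraries (Cdh5 and Tek), and the rest were counted. Neutrophil markers (18.1 to 45.0 and 17.6 to 39.6 CPM), B and plasma cell markers (12.8 to 22.9 and 9.11 to 25.97 CPM) and neural and glial markers (17.0 to 24.8 and 14.5 to 35.2 CPM) overlapped. The part of these cells in the values of the 8 genes was not tested.

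**Figure D1:**
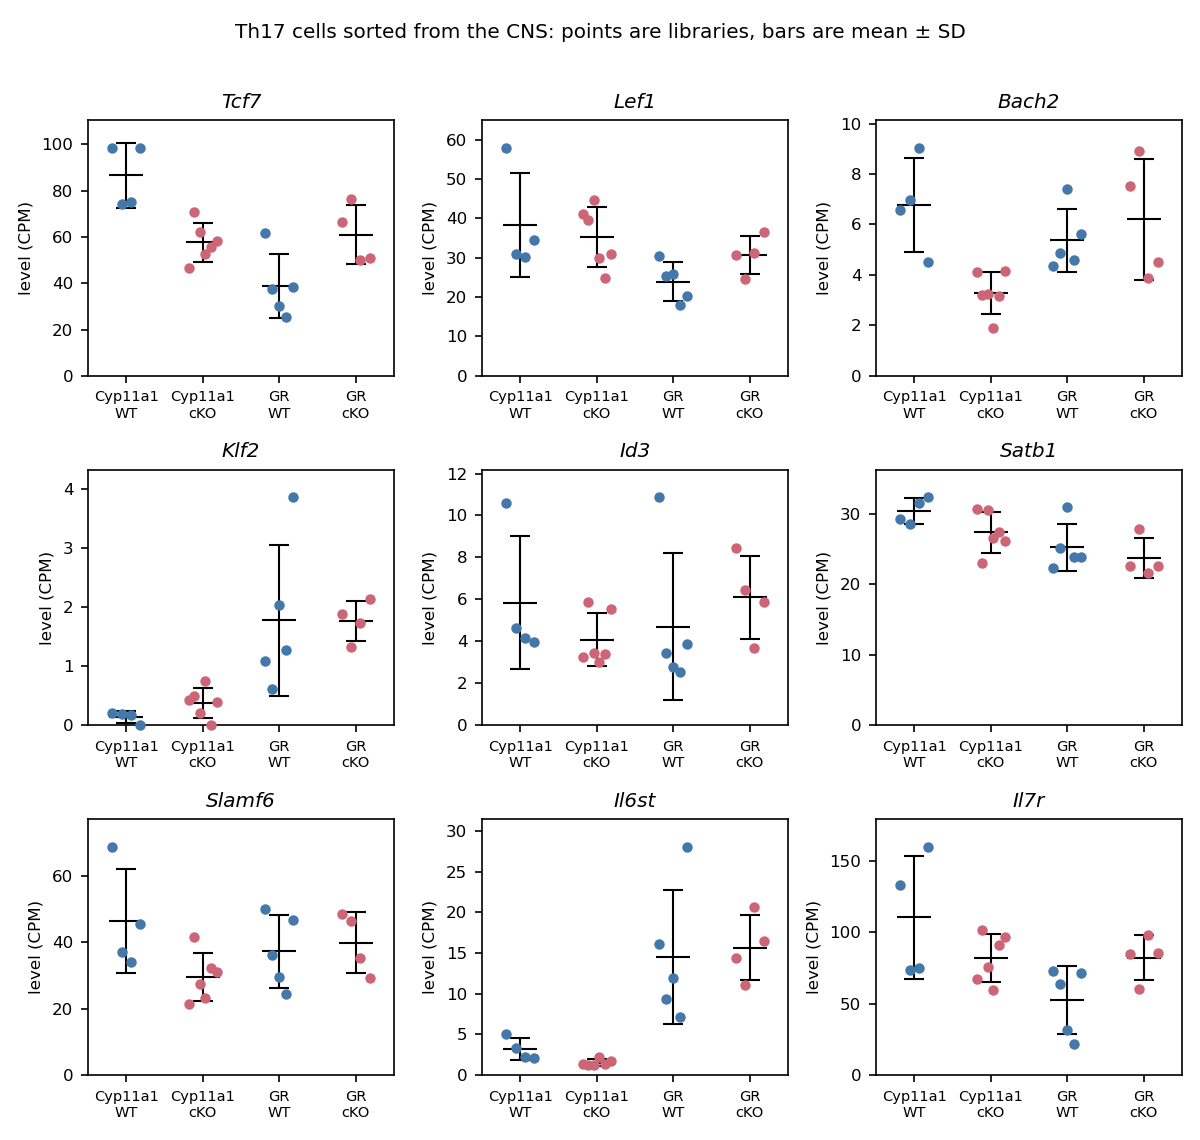
Levels in CPM (vertical axis) of the 9 genes in Th17 cells sorted from the CNS, by genotype (horizontal axis), 1 point per library with mean and SD as bars. Tcf7 and Bach2 do not overlap between Cyp11a1 WT and cKO, and every gene overlaps between GR WT and cKO.

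The GR comparison asks the same of Th17 cells whose glucocorticoid receptor gene is targeted. Again 8 genes were tested and Klf2 was not, and 7 of the 8 had a higher fitted level in cKO, with a median log2 fold change of 0.27 against −0.0014 over all 10597 genes. That median was 0.16 without cKO replicate 1, 0.16 without WT replicate 4, 0.12 without WT replicates 3 and 4, and 0.43 in limma voom. None passed: 0 of the 8 in edgeR, DESeq2 and limma voom alike, where edgeR called 0% of all genes, with 1 of the 8 at an unadjusted p below 0.05 (8.21% of all genes). Groups overlapped for each of the 8 genes, while 2.25% of all genes did not overlap.

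Tcf7 stood at 61.8, 37.7, 30.2, 25.6 and 38.6 CPM in GR WT replicates 1 to 5 and at 66.4, 76.5, 50.03 and 50.8 CPM in cKO replicates 1 to 4. All cKO libraries lay above 4 of the 5 WT libraries, with WT replicate 1 among them. For Tcf7 the log2 fold change was 0.65 ± 0.24 with a 95% interval of 0.12 to 1.18 (edgeR adjusted p = 0.580). Lef1 was at 17.9 to 30.4 CPM in WT and 24.6 to 36.5 CPM in cKO (log2 fold change 0.34 ± 0.17, edgeR adjusted p = 0.580). Bach2 at 4.35 to 7.42 CPM in WT and 3.86 to 8.91 CPM in cKO, and Satb1 at 22.3 to 31.0 and 21.6 to 27.9 CPM, had log2 fold changes of 0.21 ± 0.28 and −0.09 ± 0.14 (edgeR adjusted p = 0.811 and 0.840). Id3 was at 10.9 CPM in WT replicate 1 and 2.56 to 3.86 CPM in the other WT libraries, against 3.67 to 8.45 CPM in cKO (log2 fold change 0.32 ± 0.44, edgeR adjusted p = 0.813). Without WT replicate 1 the Id3 value was 0.94, without cKO replicate 1 it was 0.145, and without WT replicates 3 and 4 it was −0.060. Klf2 had 3 to 11 counts in WT and 6 to 9 in cKO, or 1.77 ± 1.27 (n = 5) and 1.77 ± 0.339 CPM (n = 4).

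Il7r and Il6st varied widely among the GR libraries. Il7r was at 73.0, 64.0, 31.7, 22.0 and 71.2 CPM in WT and at 84.8, 60.4, 98.3 and 85.4 CPM in cKO, so WT replicates 3 and 4 were far below the rest. The log2 fold change was 0.65 ± 0.32 (edgeR adjusted p = 0.580), and 0.24 without those 2 libraries (edgeR adjusted p = 0.9995). Il6st was at 16.1, 9.32, 11.9, 7.16 and 28.0 CPM in WT and at 14.4, 11.1, 20.7 and 16.5 CPM in cKO, with a log2 fold change of 0.14 ± 0.35 (edgeR adjusted p = 0.909) that turned to −0.15 without WT replicates 3 and 4. Slamf6 ran from 24.3 to 50.01 CPM in WT and from 29.3 to 48.5 CPM in cKO (log2 fold change 0.10 ± 0.23, edgeR adjusted p = 0.906).

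Myeloid RNA was abundant in these sorts and uneven. The 20 myeloid and microglia markers summed to 18848, 9184, 4522, 5774 and 21797 CPM in GR WT replicates 1 to 5 and to 17036, 10638, 22919 and 22198 CPM in cKO replicates 1 to 4. WT replicates 3 and 4, the lowest in Il7r and Tcf7, were also the lowest in this sum. Tcf7 did not follow the sum elsewhere: it was highest, at 76.5 CPM, in cKO replicate 2, which had the lowest sum of its group. WT replicate 5, with a sum of 21797 CPM, had 38.6 CPM of Tcf7. The 3 libraries of highest sum, cKO replicates 3 and 4 and WT replicate 5, were also the highest in Il6st. Il6st was at 7.16 to 28.0 CPM in the GR experiment and at 1.22 to 5.08 CPM in the Cyp11a1 experiment, whose myeloid sums did not exceed 1231 CPM. Scaled to the 12 T cell markers other than the receptor constant genes, a scaling added after seeing the data, the log2 fold changes were 0.58 for Tcf7 and 0.58 for Il7r (edgeR adjusted p = 0.526 and 0.621). Endothelial markers were 28.7 to 60.9 CPM in WT and 18.5 to 30.02 CPM in cKO, NK and CD8 T cell markers 47.1 to 103 and 46.8 to 63.5 CPM, neutrophil markers 28.9 to 85.2 and 82.1 to 103 CPM, B and plasma cell markers 37.9 to 85.2 and 43.7 to 52.7 CPM, and neural and glial markers 25.8 to 33.0 and 27.4 to 41.6 CPM. Each of the 10 endothelial markers was counted in the GR WT group, while Cdh5 and Tek were at 0 in all GR cKO libraries. The part of these cells in the values above was not tested.

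**Figure D2:**
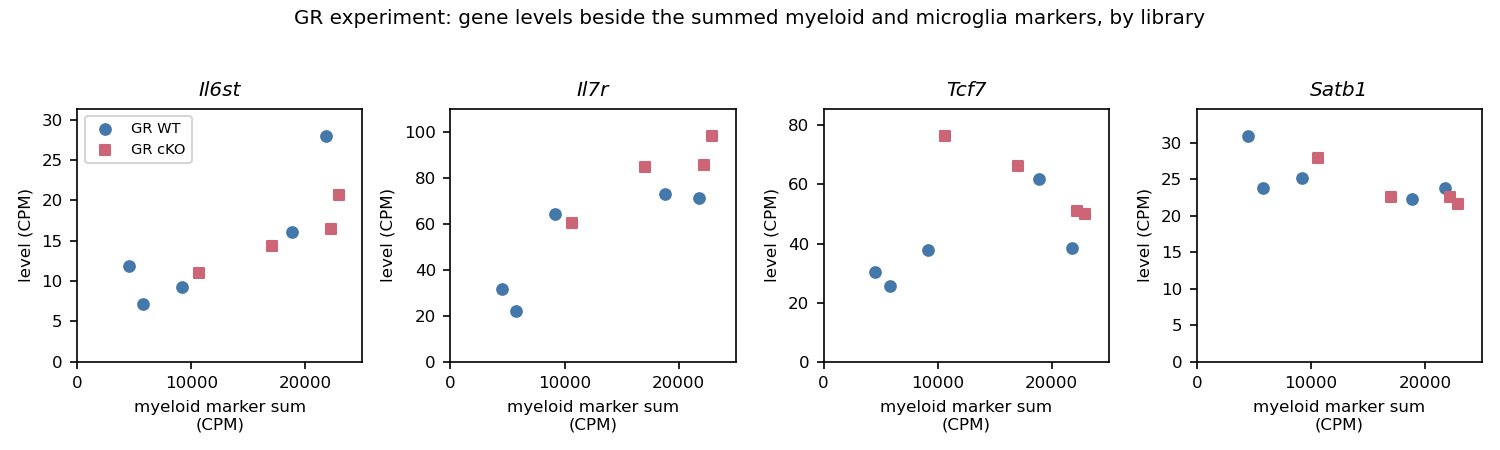
Levels in CPM of Il6st, Il7r, Tcf7 and Satb1 (vertical axes) against the summed myeloid and microglia markers in CPM (horizontal axes), 1 point per GR library, WT as circles and cKO as squares. WT replicates 3 and 4 lie at the left with low Il7r and Tcf7, and the libraries at the right hold the highest Il6st. The highest Tcf7 is in cKO replicate 2, which lies left of the other cKO libraries.

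In culture the question was what a glucocorticoid and TGF-β1, alone or together, do to inflammatory Th17 cells. Of the 9 genes, 7 were tested, Il6st and Klf2 being too low. Satb1 fell in both comparisons of TGF-β1, alone or with Dex, with control, and Bach2 was higher with TGF-β1 + Dex than with Dex alone. None of the 7 passed between Dex and control or between TGF-β1 + Dex and TGF-β1. Myeloid sums were 57.7 to 87.8 CPM over these 12 libraries, with Csf1r, Adgre1, Itgam, C1qa and Trem2 at 0 in every one. The 10 NK and CD8 T cell markers summed to 22.6 to 24.1 CPM in control, 22.8 to 29.8 with Dex, 12.1 to 15.7 with TGF-β1 and 17.0 to 30.4 CPM with TGF-β1 + Dex, so the TGF-β1 libraries lay below all the others. The 10 endothelial markers, among them Ly6c1, which T cells also express, summed to 100.1 to 151 CPM in control, 136 to 219 with Dex, 69.9 to 143 with TGF-β1 and 110.2 to 241 CPM with TGF-β1 + Dex, with replicate 2 the highest of each group and Cdh5 and Tek at 0 in all. The part of these cells in the values of the 7 genes was not tested. The comparisons share libraries (control serves 3 of them), so they are not independent of each other.

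The promoter stretches of Bach2 and Satb1, the 2 genes past the threshold, are shown to print the letters before a transcript start that RefSeq gives them (GRCm38.p6), 250 bases each, 5′ to 3′ on the gene's strand. Capitals mark the Smad-binding core CAGAC and the glucocorticoid receptor half-site AGAACA, searched on both strands. The Bach2 stretch is chr4:32417185-32417434 (+ strand), which lies within the span of Bach2 given above and so before a start inside the gene, and holds no annotated exon. The Satb1 stretch is chr17:51833291-51833540 (− strand), with no Satb1 exon, though all 250 bases lie in an exon annotated to another gene.
Bach2: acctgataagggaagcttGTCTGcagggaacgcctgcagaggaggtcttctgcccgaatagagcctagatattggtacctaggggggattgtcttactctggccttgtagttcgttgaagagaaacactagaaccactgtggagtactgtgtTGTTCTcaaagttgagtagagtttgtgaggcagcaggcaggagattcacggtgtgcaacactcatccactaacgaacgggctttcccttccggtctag
Satb1: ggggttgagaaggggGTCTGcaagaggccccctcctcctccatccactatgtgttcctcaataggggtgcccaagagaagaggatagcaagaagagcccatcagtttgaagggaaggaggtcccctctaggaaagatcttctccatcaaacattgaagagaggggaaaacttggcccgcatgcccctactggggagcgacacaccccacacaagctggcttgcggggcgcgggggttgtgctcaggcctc

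In the Bach2 stretch a CAGAC core starts at base 19 (as GTCTG) and an AGAACA half-site at base 153 (as TGTTCT), counted from the first base printed. A CTTTGA core of TCF and LEF factors, also searched, starts at base 158 on the other strand and overlaps the half-site in 1 base. The Satb1 stretch has a CAGAC core at base 16 and neither of the other 2 letter patterns. Satb1 has further stretches before other starts, which are not printed, and some of these hold CAGAC while others do not. Among 32851 stretches of the same length over all genes, 42.2% hold CAGAC, 16.1% AGAACA, 13.8% CTTTGA and 0.167% the palindromic Smad element GTCTAGAC. Of the 17 stretches of the 9 genes, all of which were in the table, 9 hold CAGAC, 3 AGAACA, 2 CTTTGA and 0 GTCTAGAC. Some stretches overlap, and overlapping Lef1 stretches hold the same CAGAC, so these counts are of stretches and not of separate matches. A match is a description of letters and not a site at which a factor was measured.

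Satb1 stood at 175, 168 and 180 CPM in control, 160, 158 and 156 CPM with Dex, 132, 146 and 131 CPM with TGF-β1, and 148, 122 and 145 CPM with TGF-β1 + Dex. Control libraries were the highest, Dex libraries lay between, and both TGF-β1 groups lay below every Dex library. The log2 fold change against control was −0.35 ± 0.08 with TGF-β1 (edgeR adjusted p = 0.0213) and −0.33 ± 0.08 with TGF-β1 + Dex (edgeR adjusted p = 0.0205), a fold of 0.783 and 0.795. Neighbours in the order did not pass: Dex against control at −0.14 (95% interval −0.30 to 0.02, edgeR adjusted p = 0.468), TGF-β1 + Dex against Dex at −0.19 (−0.36 to −0.03, edgeR adjusted p = 0.289), and TGF-β1 + Dex against TGF-β1 at 0.02 (−0.14 to 0.19, edgeR adjusted p = 0.978). The size of the TGF-β1 difference held with single libraries left out, but its adjusted p rose above 0.05 without control replicate 1 or 3 or TGF-β1 replicate 1 or 3 (log2 fold change −0.34, −0.33, −0.32 and −0.33, edgeR adjusted p = 0.0739, 0.0998, 0.102 and 0.0858). For TGF-β1 + Dex the call was lost without control replicate 1 or 3 or TGF-β1 + Dex replicate 2 (−0.32, −0.30 and −0.25, edgeR adjusted p = 0.0746, 0.0940 and 0.0630) and with only the 2 compared groups in the fit (−0.33, edgeR adjusted p = 0.0678).

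Bach2 stood at 39.2, 42.0 and 40.7 CPM in control, 38.3, 29.0 and 36.1 CPM with Dex, 55.9, 53.8 and 46.6 CPM with TGF-β1, and 46.9, 47.9 and 54.7 CPM with TGF-β1 + Dex. Every library with TGF-β1 lay above every library without it, and every Dex library lay below every control. The log2 fold change between TGF-β1 + Dex and Dex was 0.54 ± 0.12, a fold of 1.46 (edgeR adjusted p = 0.0309). TGF-β1 alone gave 0.36 ± 0.12 over control (95% interval 0.10 to 0.61, edgeR adjusted p = 0.156), TGF-β1 + Dex 0.30 ± 0.12 (0.05 to 0.56, edgeR adjusted p = 0.177), and Dex −0.24 ± 0.12 (−0.51 to 0.02, edgeR adjusted p = 0.426). Against Dex the log2 fold change stayed between 0.43 and 0.63 with each library left out, while the call was lost without Dex replicate 2 or 3 (0.43 and 0.58, edgeR adjusted p = 0.119 and 0.0690), without TGF-β1 + Dex replicate 1, 2 or 3 (0.59, 0.57 and 0.47, edgeR adjusted p = 0.0583, 0.0620 and 0.136), and with only the compared groups in the fit (0.54, edgeR adjusted p = 0.0942).

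Id3, the inhibitor of E proteins, was at 12.6, 14.4 and 15.1 CPM in control, 7.41, 10.7 and 15.3 CPM with Dex, 9.82, 6.94 and 6.96 CPM with TGF-β1, and 10.9, 5.95 and 7.16 CPM with TGF-β1 + Dex. Both TGF-β1 groups lay below every control library, and the Dex group overlapped each of the others. The log2 fold changes against control were −0.85 ± 0.27 with TGF-β1 and −0.83 ± 0.27 with TGF-β1 + Dex (edgeR adjusted p = 0.143 and 0.0991).

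Lef1 was at 89.2, 122 and 112 CPM in control, 143, 142 and 161 CPM with Dex, 133, 92.5 and 92.6 CPM with TGF-β1, and 98.6, 125 and 144 CPM with TGF-β1 + Dex. The Dex libraries were above all control libraries, with a log2 fold change of 0.46 ± 0.16 (95% interval 0.10 to 0.81, edgeR adjusted p = 0.222). The other 2 groups overlapped control. Tcf7, its relative, was at 18.9 to 29.96 CPM over all 12 libraries, and group means of 26.9 ± 1.14 in control, 24.4 ± 5.13 with Dex, 28.2 ± 2.49 with TGF-β1 and 25.3 ± 2.95 CPM with TGF-β1 + Dex (SD, n = 3) lay within each other's spread. Its 95% intervals against control were −0.47 to 0.20, −0.26 to 0.40 and −0.43 to 0.23 on the log2 scale (edgeR adjusted p = 0.787, 0.889 and 0.808).

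Il7r was at 36.7, 34.3 and 35.3 CPM in control, 40.4, 42.4 and 44.5 CPM with Dex, 28.3, 26.02 and 27.8 CPM with TGF-β1, and 43.2, 28.3 and 28.4 CPM with TGF-β1 + Dex. Dex libraries lay above control and TGF-β1 libraries below it, while in the TGF-β1 + Dex group replicate 1 was at the Dex level and the other 2 near the TGF-β1 level. The log2 fold change was 0.26 ± 0.14 with Dex and −0.37 ± 0.15 with TGF-β1 (edgeR adjusted p = 0.468 and 0.256). Against Dex, TGF-β1 + Dex gave −0.36 ± 0.14 (edgeR adjusted p = 0.287), and −0.58 with adjusted p = 0.0177 without TGF-β1 + Dex replicate 1.

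Slamf6 was at 5.60, 10.4 and 5.84 CPM in control, 6.79, 16.1 and 11.7 CPM with Dex, 1.51, 7.23 and 3.33 CPM with TGF-β1, and 7.48, 17.1 and 7.58 CPM with TGF-β1 + Dex. Replicate 2 was the highest in each of the 4 groups. The TGF-β1 + Dex libraries lay above the TGF-β1 libraries, with a log2 fold change of 1.32 ± 0.51 (edgeR adjusted p = 0.398). Il6st had 6 to 11 counts a library, at 1.82 ± 0.328 CPM in control, 2.18 ± 0.485 with Dex, 2.65 ± 0.531 with TGF-β1 and 2.81 ± 0.923 CPM with TGF-β1 + Dex (SD, n = 3). Klf2 had 0 to 2 counts a library and 0 in all 3 TGF-β1 + Dex libraries, which allows up to 1.02, 1.05 and 0.632 CPM there.

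Counted over the 7 tested genes, Dex against control gave 0 calls in edgeR, DESeq2 and limma voom, where 1.83% of all 10332 genes passed in edgeR. An unadjusted edgeR p below 0.05 was found for 1 of the 7, against 13.2% of all genes. Groups did not overlap for 4 genes (Lef1 and Il7r higher, Bach2 and Satb1 lower) against 19.3% of all genes. TGF-β1 against control gave 1 call, lower (3.29% of all genes), and 4 genes at an unadjusted edgeR p below 0.05 (15%). Without overlap were 4 genes (Bach2 higher, and Il7r, Id3 and Satb1 lower) against 21%. TGF-β1 + Dex against control gave 1 call, lower (6.25%), 3 genes unadjusted (18.8%), and 3 without overlap (Bach2, Id3 and Satb1) against 23.6%. TGF-β1 + Dex against TGF-β1 gave 0 calls in edgeR, DESeq2 and limma voom, where 0.532% of all genes passed in edgeR. It gave 1 gene unadjusted (9.85%) and 1 gene, Slamf6, without overlap (15.2%). TGF-β1 + Dex against Dex gave 1 call, higher (2.62%), 3 genes unadjusted (13%), and 2 without overlap, Bach2 and Satb1, against 18.4%. The interaction of Dex and TGF-β1 asks whether the effect of one differs in the presence of the other. It gave 0 calls among the 7 in edgeR, DESeq2 and limma voom, and 0 at an unadjusted edgeR p below 0.05 (5.34% of all genes). In edgeR 0% of all genes passed for it. Its 95% intervals were wide, from −0.07 to 0.40 for Satb1 and from −0.85 to 2.16 for Slamf6 on the log2 scale.

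**Figure D3:**
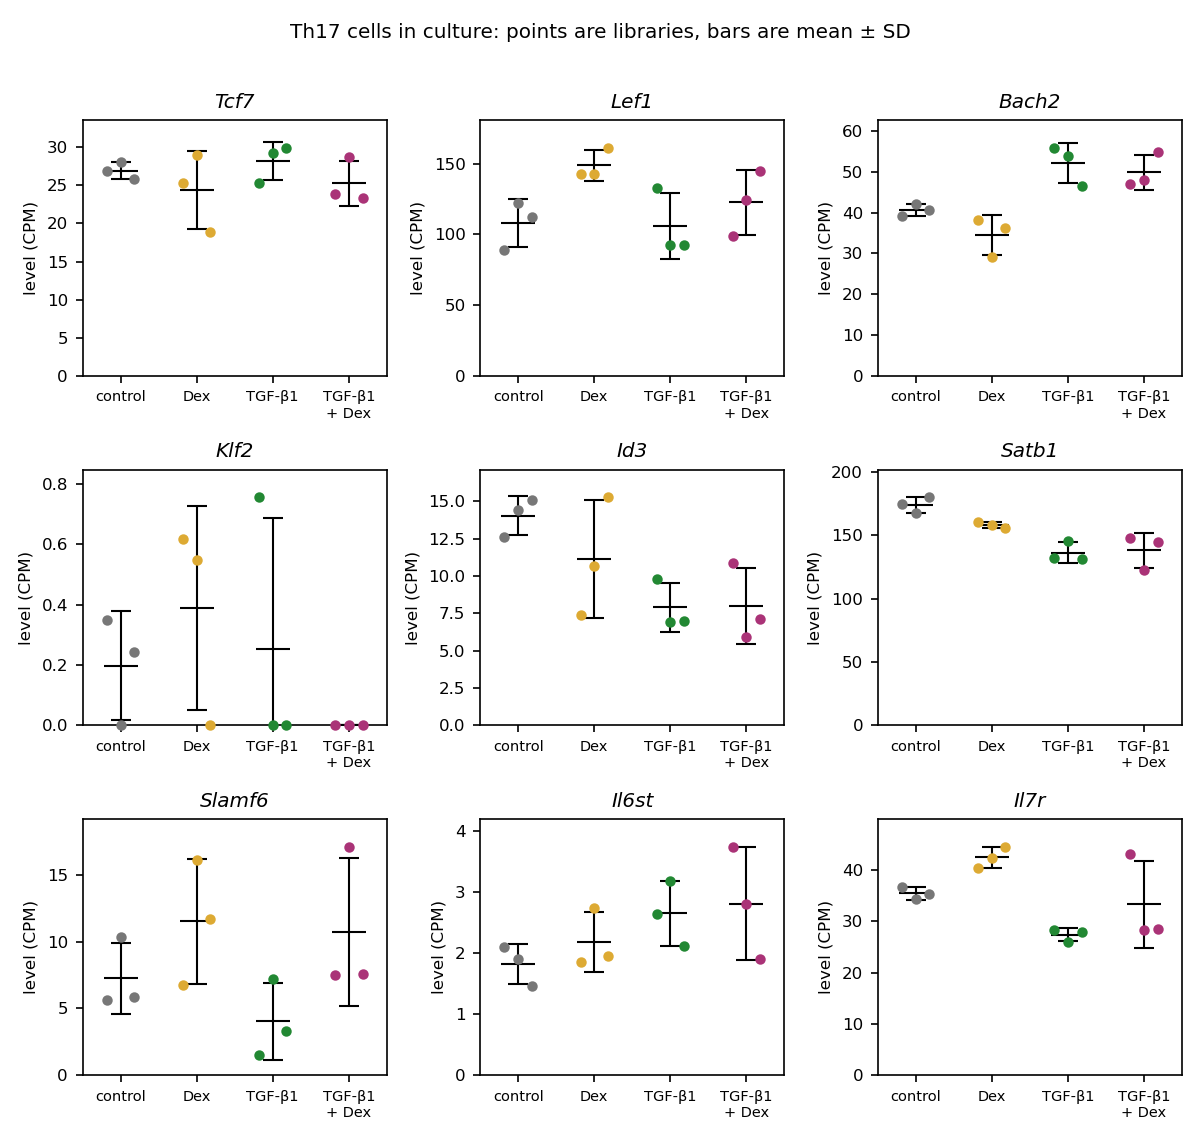
Levels in CPM (vertical axis) of the 9 genes in cultured Th17 cells, by treatment (horizontal axis), 1 point per library with mean and SD as bars. Satb1 is lower in both groups with TGF-β1 than in control, and Bach2 is higher in both groups with TGF-β1 than in the Dex group.

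**Figure D4:**
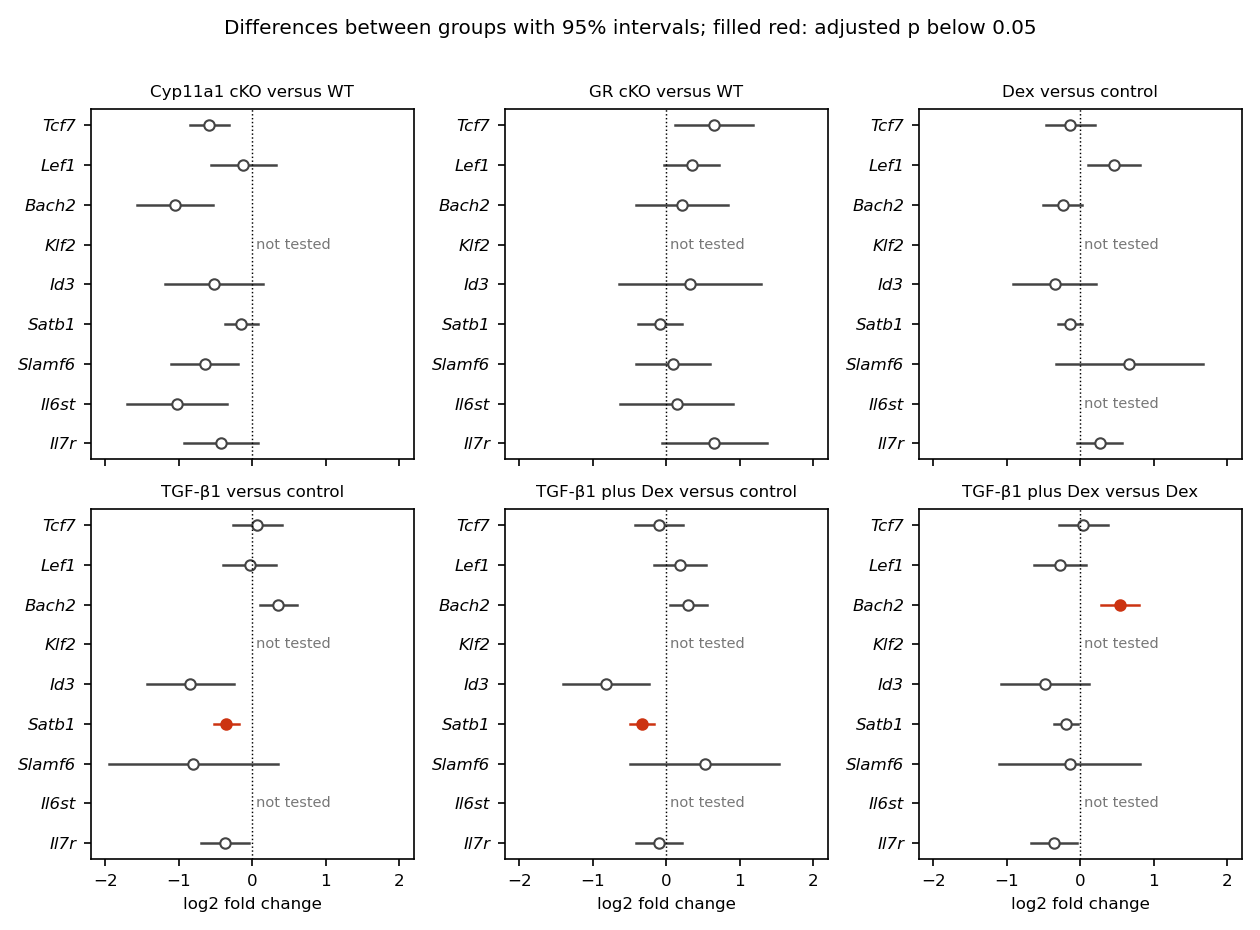
Log2 fold changes (horizontal axis) with 95% intervals of the 9 genes (vertical axis) in 6 comparisons. Filled red points, Satb1 in 2 panels and Bach2 in 1, have an edgeR adjusted p below 0.05, and genes with too few counts are written as not tested.

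The 9 lists of 116 other genes from the pathways of these regulators were counted in the same fits. In both genotype comparisons 0 genes of any list passed in edgeR, where 0.178% of all genes passed for Cyp11a1 and 0% for GR. An unadjusted edgeR p below 0.05 was found for 0 to 5 genes a list, against 8% and 8.21% of all genes. In the Cyp11a1 comparison 16 of 20 tested genes of the stem-like, naive and memory list were lower in cKO (median log2 fold change −0.13). Higher were 7 of 7 other Kruppel-like factors (median 0.19) and 13 of 18 effector differentiation genes (median 0.18). The median over all genes was 0.0027, and no gene of these lists passed the threshold. By count, the effector differentiation list had the most genes at an unadjusted edgeR p below 0.05, 5 of 18 against 8% of all genes. As a share it did not stand out, with 3 of 8 in the SLAM family list and 2 of 7 other Kruppel-like factors. In the GR comparison 10 of 11 genes of interleukin 6 family signalling were higher (median 0.17) and 10 of 12 of interleukin 7 and common gamma chain signalling were lower (median −0.15), again with 0 passing.

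Over all 10332 genes in culture, edgeR called 1.83% with Dex, 3.29% with TGF-β1 and 6.25% with TGF-β1 + Dex against control, in either direction. The shares for TGF-β1 + Dex were 2.62% against Dex and 0.532% against TGF-β1. They are the background for each list count that follows. In culture, 2 of 19 tested genes of the stem-like, naive and memory list rose with TGF-β1. Ccr7, the lymph node homing receptor, rose from 565 ± 18.1 in control to 1007 ± 33.8 CPM with TGF-β1 (log2 fold change 0.83 ± 0.05, edgeR adjusted p = 9.23e-07) and 1032 ± 18.1 CPM with TGF-β1 + Dex (n = 3 each), and to 655 ± 28.8 CPM with Dex (0.21 ± 0.05, edgeR adjusted p = 0.0431). The transcription factor gene Zeb1 rose by 0.85 with TGF-β1 and Foxp1, a keeper of quiescence, by 0.84 with TGF-β1 + Dex (edgeR adjusted p = 0.00853 and 0.0362). Zeb1 rose by 0.67 with TGF-β1 + Dex as well, so that 3 rose in that comparison, and against Dex alone Ccr7 rose by 0.65 (edgeR adjusted p = 8.19e-06).

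Effector differentiation genes, which BACH2 and TCF1 are known to restrain, gave 2 higher and 2 lower of 14 tested with TGF-β1 (3.29% of all genes). Gzmb, a cytotoxic granule protease, fell from 655 ± 59.8 to 216 ± 81.3 CPM (log2 fold change −1.59 ± 0.26, edgeR adjusted p = 0.00609) and with TGF-β1 + Dex to 100 ± 28.4 CPM (−2.71 ± 0.27, edgeR adjusted p = 0.000154). Batf fell by 0.77 and 0.99 in the same comparisons, and Irf4 rose by 0.33 and 0.31, both being activation-linked transcription factor genes (edgeR adjusted p = 0.000849, 6.59e-05, 0.0129 and 0.0132). Maf, low at a mean of 1.37 CPM in control, rose by 1.57 with TGF-β1, to 4.21 CPM (edgeR adjusted p = 0.0149). With TGF-β1 + Dex it rose by 1.68, to 4.58 CPM (edgeR adjusted p = 0.00555). Maf stands in the Bach and Maf family list too, where it was the 1 call of 6 tested. It was singled out after its values were seen, as were Tnfrsf9 and Rbpj, which fell by 0.25 and 0.24 with TGF-β1 + Dex and completed 2 higher and 4 lower. Rbpj, the partner of Notch, also fell by 0.32 with Dex, the 1 call of that list there (edgeR adjusted p = 0.0277). Against Dex alone, TGF-β1 + Dex gave 1 higher (Irf4) and 2 lower (Gzmb and Batf).

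Signalling partners of the cytokine receptors were counted next, where Il7r was tested and not called and Il6st had too few counts to be tested. In interleukin 6 family signalling, 2 of 10 tested genes rose with TGF-β1: Stat3, its main transcription factor, from 189 ± 4.44 to 252 ± 7.41 CPM (log2 fold change 0.42 ± 0.06, edgeR adjusted p = 0.00168), and Socs3, its feedback inhibitor, from 102 ± 6.17 to 183 ± 9.15 CPM (0.84 ± 0.10, edgeR adjusted p = 0.000525). With TGF-β1 + Dex 3 rose, the third being Il6ra, named after its value was seen, by 1.22 (edgeR adjusted p = 0.00418), and against Dex alone Stat3 and Socs3 rose by 0.53 and 0.74. In interleukin 7 and common gamma chain signalling Stat5a, which carries the signal of IL7R, was the 1 call of 12 in 4 comparisons: 171 ± 15.6 CPM in control, 121 ± 13.3 with Dex, 267 ± 13.4 with TGF-β1 and 175 ± 23.3 CPM with TGF-β1 + Dex. It fell by 0.50 with Dex and by 0.60 when Dex was added to TGF-β1, and rose by 0.64 with TGF-β1 and by 0.54 when TGF-β1 was added to Dex (edgeR adjusted p = 0.0375, 0.0213, 0.00393 and 0.0185).

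The E protein and Id protein list had 1 call of 5 tested with TGF-β1 and 1 with TGF-β1 + Dex against Dex, both Id1, a relative of Id3 named after its values were seen, which rose by 1.41 and 1.35 (edgeR adjusted p = 0.0148 and 0.0397). Among the other Kruppel-like factors 1 of 6, Klf6, rose with TGF-β1 + Dex, by 0.40 (edgeR adjusted p = 0.0413). The Wnt partners of TCF1 and LEF1 (10 tested) and the SLAM family with its adaptors (8 tested) had 0 calls in edgeR in each culture comparison. At an unadjusted edgeR p below 0.05 the Wnt list had 0 to 2 of 10 genes and the SLAM list 1 to 3 of 8. The share of all genes was 9.85% to 18.8%. The 3 of 8 were found for TGF-β1 + Dex against Dex, where 13% of all genes had such a p. Every list had 0 calls for the interaction of Dex and TGF-β1, with 0 to 4 genes a list at an unadjusted edgeR p below 0.05 (5.34% of all genes). The highest of these counts was 4 of 19 in the stem-like, naive and memory list.

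The genes whose levels followed a member most closely over the 12 culture libraries were found among 5047 genes of sufficient level, by Pearson's r of log2 CPM, as a description over libraries that share their treatment and without a test. For Satb1 they were Pla2g12a (r = 0.93) and Tnfrsf8 (0.91), for Bach2 Syngr3 (0.93) and Actr1b (0.92), and for Id3 Il4ra (0.86) and Lage3 (0.86). Tcf7 was followed by Cd27 (0.88) and Bin1 (0.78), and Lef1 by Men1 (0.85) and Rnf14 (0.84). For Il7r they were Ddit3 (0.93) and S100a11 (0.91), and for Slamf6 Ly6c1 (0.96) and Srek1 (0.91).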

How the data were processed

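Polyadenylated RNA was sequenced in read pairs after SMART-Seq2 and Nextera XT, per the labels' protocols, a preparation that marks no strand. The values are raw counts per gene as deposited, 1 table per experiment, with RSEM 1.3.3 and mm10 named in the submitters' processing notes. How whole numbers were obtained is not given in the sources used here. All columns were matched to libraries by label. edgeR 4.0.16 was run under R 4.3.3 (filterByExpr, TMM, robust quasi-likelihood F tests), each experiment alone, with Benjamini-Hochberg adjustment over all genes tested at 0.05. Replicate pairs differed by 2.79 to 142 times counting error (chi-square per degree of freedom, 49 pairs). The 9 genes, the 9 pathway lists and the 7 marker lists were chosen with earlier results of these data known. List genes are named, in culture, as up to 3 per list and comparison by size of change at a mean log2 CPM of at least 4, and others where the text says so. Positions are from GENCODE M21 (GRCm38). Alternatives were other scalings (RLE, upper quartile, T cell markers), no low-count filter, a mean count of 50, DESeq2 1.42.0 and limma voom 3.58.1. Further alternatives were a replicate block, leaving out each library or the highly counted predicted genes, and fitting only the groups compared. Fits without pairs of libraries and T cell marker scaling without receptor constant genes were added after seeing the data. The tests were checked on simulated counts. The values of some list genes are not reported here.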

Additional observations from a re-analysis of the deposited data

Results flagged for a closer look

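Of 32 sets of libraries (a gene in a group of 4 to 10), 4 had a library far from the others by Dixon's criterion, which chance gives in about 1 of 20 groups. In the Cyp11a1 WT group replicate 1 stood apart for Id3 at 10.6 CPM, the next library being at 4.65 CPM, and for Lef1 at 58.0 CPM against 34.4 CPM. In the GR WT group replicate 1 stood apart for Id3 at 10.9 CPM against 3.86 CPM. In the GR cKO group replicate 2 stood apart for Satb1 at 27.9 CPM against 22.6 CPM. The interaction of Dex and TGF-β1 was tested for 7 genes and passed for 0.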

How the results depend on the processing

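Of 975 gene values recomputed under alternatives, over 58 results, 918 kept their direction and side of the threshold, 39 turned direction in 16 results that were not called, 14 called values no longer passed and 4 now passed. No scaling moved the median of all genes by over 0.1. Over all genes, Cyp11a1 cKO against WT gave 18 calls in edgeR, 63 in DESeq2, 5 in limma voom, 33 without a low-count filter, 1 with a replicate block and 6 without WT replicates 1 and 4. For TGF-β1 + Dex against TGF-β1, edgeR called 55, DESeq2 94 and the compared groups alone 22. Where edgeR called 0, DESeq2 called 3 for GR and 6 for the interaction, the fit without GR WT replicates 3 and 4 called 1, and the interaction gave 4 without a low-count filter and 2 with a block. With 1 library left out, all-gene counts went from 18 to between 9 and 22 for Cyp11a1 and from 55 to between 24 and 35 for TGF-β1 + Dex against TGF-β1. They fell from 189 to between 78 and 129 for Dex, from 340 to between 219 and 259 for TGF-β1, from 646 to between 425 and 502 for TGF-β1 + Dex, and from 271 to between 152 and 203 for TGF-β1 + Dex against Dex. Among the 9 genes, for Cyp11a1 cKO against WT, DESeq2 and the fit without a low-count filter called 1 gene, Tcf7, in place of 0. With only the compared groups in the fit, 0 genes were called in place of 1 for TGF-β1 + Dex against control and against Dex. Leaving out 1 library at a time gave 0 to 1 calls for TGF-β1 against control, TGF-β1 + Dex against control and TGF-β1 + Dex against Dex. In the last, the call without TGF-β1 + Dex replicate 1 was Il7r and not Bach2. The cause of these changes was not tested.

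Values that turned direction, on the log2 scale, were as follows. Without GR WT replicates 3 and 4, Id3 was −0.060, Il6st −0.15 and Slamf6 −0.15. Without Cyp11a1 WT replicates 1 and 4, Il7r was 0.14 and Lef1 0.20. With limma voom, Id3 was −0.0061 for TGF-β1 + Dex against TGF-β1 and the Il7r interaction −0.035, which was −0.0030 with a mean count of 50. With each library left out in turn, the GR values ran from −0.047 to 0.40 for Bach2, −0.034 to 0.48 for Il6st and −0.024 to 0.23 for Slamf6, and the Cyp11a1 value of Lef1 from −0.23 to 0.15. For TGF-β1 + Dex against TGF-β1 they ran from −0.14 to 0.00090 for Bach2, −0.23 to 0.20 for Id3 and −0.021 to 0.10 for Satb1. Against Dex they ran from −0.62 to 0.19 for Slamf6 and −0.11 to 0.19 for Tcf7, and against control from −0.31 to 0.018 for Il7r. Lef1 with TGF-β1 ran from −0.22 to 0.061, Tcf7 with Dex from −0.28 to 0.018, and the interactions from −0.21 to 0.13 for Il7r and −0.18 to 0.12 for Tcf7.

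Replicate numbers did not meet the limit set for pairing in any experiment. Correlations of same-numbered libraries' deviations lay between −0.14 and −0.042 for Cyp11a1, −0.24 and 0.12 for GR, and −0.019 and 0.073 for the cultures, where 0.1 in every pair was asked. In the cultures the median was 0.0275 for same-numbered pairs and −0.0145 for other pairs, of which the highest was 0.033. Whether a pairing weaker than the limit is present there was not tested. A fit with the replicate number as a block called 1 gene in place of 0 for TGF-β1 + Dex against TGF-β1, Slamf6 (1.40, edgeR adjusted p = 0.0436), and turned Lef1 to 0.054 in the Cyp11a1 comparison. It changed no other count of calls among the 9 genes. Depth limits Klf2 everywhere and Il6st and Bach2 in part, since they had few counts a library.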
